A study of Mus musculus with 8 samples.

Results

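Running and Sedentary mice were compared by single-nucleus RNA sequencing of the gastrocnemius, a calf muscle. The comparison holds 4 of the 8 libraries of the series, 2 Running and 2 Sedentary, and the other 4 came from Old and Young mice. All mice were wild type, and by the methods of the study they were C57BL/6. Running mice were 11 months old at the start and ran on a treadmill for 2 months at 9 metres per minute, in sessions of 30 minutes that were each followed by 2 to 3 days of rest. Sedentary mice were the untrained controls of that model. Young mice were 3 months and Old mice 20 months old, and their libraries entered only the fit of all 8 libraries and the ranks among the 4 groups. The number of mice behind a library is not given in the sources used here, so spread between libraries may be technical. The study asked whether running raised histone lactylation, a histone mark, and with it DNA repair and proteostasis pathways that fell with age. It scored these pathways and glycolysis as whole gene sets in each nucleus. It also measured lactate, LDHA protein and histone lactylation in muscle, and those measurements were not used here.

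Each group had 1 library from 10x Genomics droplets (replicate 1) and 1 from a second droplet system (replicate 2), which the methods name as DNBelab C of MGI. A nucleus was kept if its genes numbered above 200 but below 6000 and mitochondrial UMIs made up under 6%, where a UMI (unique molecular identifier) marks 1 captured RNA molecule. This kept 32040 nuclei of the 64803 that passed in the whole series. Raw UMIs were summed over the nuclei of a library, and Running was set against Sedentary within each system. The members described are the 5924 of 21113 genes with at least 100 UMIs in each of the 4 libraries. They held between 89.07% and 93.16% of the summed UMIs of a library. Levels are given as CPM (UMIs scaled to a common library total) after TMM scaling over the 8 libraries, and differences as the log2 of Running over Sedentary. At 100 against 100 UMIs the counting error of a log2 difference is 0.204.

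Depth differed between the groups in both systems. Running replicate 1 held 44389777 UMIs in 12991 nuclei and Sedentary replicate 1 held 23327640 in 10587. The second system gave 7323850 UMIs in 4228 nuclei of Running and 4765224 in 4234 of Sedentary. In these unscaled counts 1586 genes reached 100 UMIs in both Running libraries but not in both Sedentary libraries, and 17 genes did the reverse. The part of depth in these numbers was not tested. Just inside the limit, the 616 genes with a lowest count of 100 to 120 had median log2 differences of 0.23 (10x) and -0.01 (second system), and the 702 genes at 80 to 99, just outside, had 0.23 and 0.02. The 10x libraries shared 36 nucleus barcodes, and names in the second system were numbered anew in each library and could not be compared. Old replicate 2 stood apart from the other libraries, with a TMM factor of 1.4768. Doublets and free RNA were not removed. The labelled tissue carried its markers, since the 6 Type IIb fibre markers summed to 15780 and 14570 CPM in the 10x Running and Sedentary libraries and to 32870 and 31130 CPM in the second system.

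Skeletal muscle fibres hold many nuclei in 1 shared cytoplasm and differ in the myosin they use, from slow oxidative fibres with Myh7 to fast glycolytic fibres with Myh4. Fast fibres break glycogen and glucose down to pyruvate and lactate, and lactate leaves through monocarboxylate transporters. Endurance training is known for raising mitochondrial proteins, shifting fibres toward more oxidative types and changing how muscle stores glycogen.

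Of the 5924 genes, 1488 (25.1%) were higher and 1547 (26.1%) lower in Running in both systems, 2350 were higher in the 10x system and lower in the second, and 539 did the reverse. This split depends on the scaling, with 1554 higher and 991 lower in both under RLE factors and 1647 and 859 under TMM over the 4 libraries alone. The median log2 difference was 0.13 in the 10x system and -0.09 in the second, and the differences spread wider in the 10x system (SD 0.52 against 0.26). Across genes, which are not independent replicates, the differences of both systems had a Pearson r of 0.19 and a Spearman rho of 0.19 over 5924 genes. A 1.5-fold difference was passed in both systems by 57 genes higher in Running (0.962%) and by 11 genes lower (0.186%). In the opposite sense, 8 genes passed it upward in the 10x system and downward in the second, and 10 the reverse.

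**Figure D1:**
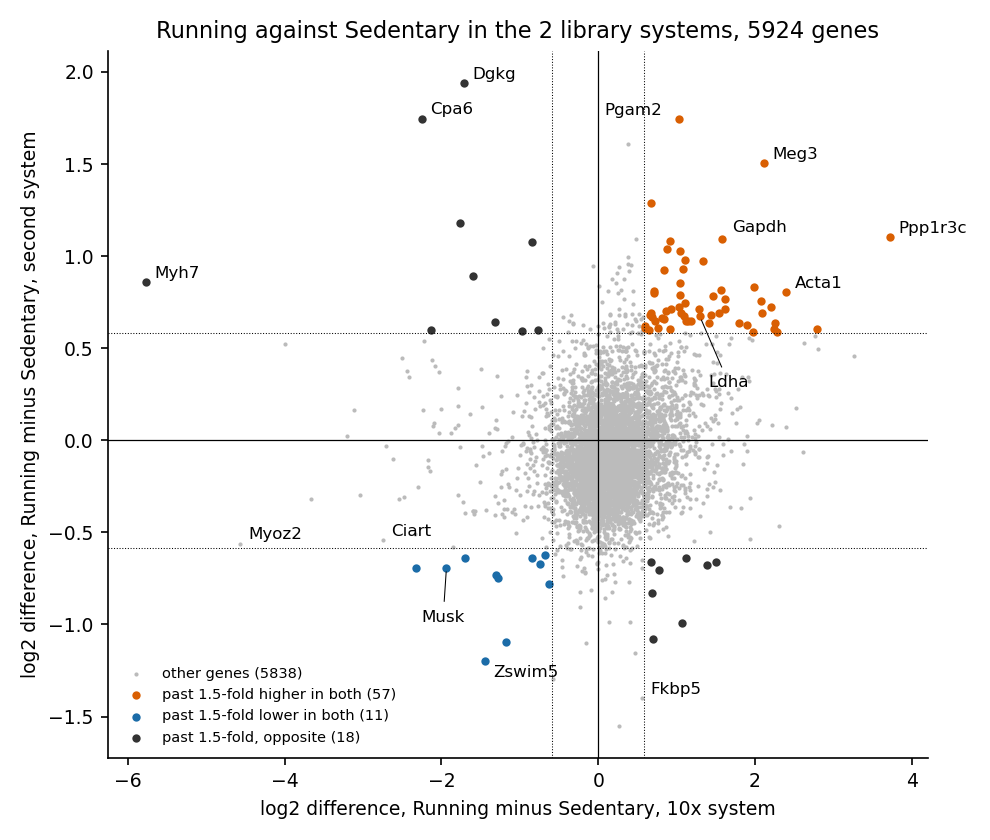
Log2 difference of Running over Sedentary in the 10x system (x axis) and in the second system (y axis) for 5924 genes, each point 1 gene, with dotted lines at 1.5-fold. The 57 genes in the upper right corner (orange) and the 11 in the lower left (blue) passed 1.5-fold in both systems, and the cloud is wider along the 10x axis.

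No gene passed the test with all 8 libraries and library system as a term (edgeR quasi-likelihood test, 0 of 20325 genes, 0.0%, with 98 at an unadjusted p under 0.05). DESeq2 gave 0 calls on the same libraries, with 392 genes at that level. The fit of the 4 Running and Sedentary libraries alone called 49 genes higher (0.266% of 18425) and 33 lower (0.179%), on 1 residual degree of freedom. It called 19 of the 57 genes higher in both systems and 3 of the 11 lower. These calls depend on the scaling and on the test, since edgeR gave 0 calls with total UMIs and 88 with RLE factors, and DESeq2 on the 4 libraries gave 4. In what follows, "called" refers to the fit of 4 libraries, and a gene named without that word did not pass it. In sums over nuclei, fewer nuclei of a type and less RNA per nucleus cannot be told apart.

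Ranked by the smaller of its log2 differences in the 2 systems, the first of the genes higher in both was Meg3, a maternally expressed long noncoding RNA of the imprinted Dlk1-Dio3 locus (chromosome 12, 109541001 to 109571726, GRCm38). It stood at 278 CPM in Running and 64.2 in Sedentary in the 10x system, and at 94.9 and 33.4 in the second. Both Running libraries lay above both Sedentary libraries. Of the 5924 described genes, 327 had this order, and 443 had both Running libraries below both Sedentary libraries. The log2 differences of Meg3 were 2.11 and 1.51, a 4.33-fold and a 2.84-fold higher level. The fit of 4 libraries called it at 1.90 (SE 0.32, edgeR adjusted p 8.26e-06), and the fit of 8 gave 1.76 (SE 0.46, edgeR unadjusted p 0.0052, not past the limit after adjustment). Rian and Mirg, noncoding RNAs of the same locus, did not reach the UMI limit. Their levels were also higher in Running within both systems, at 62.5 against 20.9 and 23.2 against 12.2 CPM for Rian and at 10.8 against 4.0 and 2.70 against 2.12 for Mirg, the last pair on 18 and 9 UMIs. Within Type IIb-like nuclei Meg3 was higher by 2.02 (10x) and 2.67 (second system) on the log2 scale. It was also higher by 1.45 in 10x nuclei like those of fibro-adipogenic progenitors, the connective tissue cells of muscle, where its level was 788 against 288 CPM.

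Ppp1r3c, which brings protein phosphatase 1 to glycogen and favours its synthesis (chromosome 19, 36731731 to 36736653), was at 170 and 12.8 CPM in Running and Sedentary in the 10x system and at 212 and 98.5 in the second. Both Running values again lay above both Sedentary values. Its log2 differences were 3.73 and 1.10, and it had the smallest p of the fit of 4 libraries (2.49, SE 0.35, edgeR adjusted p 8.76e-09). In Type IIb-like nuclei the differences were 3.58 and 1.05, and in nuclei named Type IIx or IIa-like 4.04 and 1.41. The latter class mixed fibre types unequally in the 10x system, where a cluster of it rich in Myh2, the Type IIa myosin, held 77 Running and 1116 Sedentary nuclei. Ppp1r3c was the only 1 of 15 described glycogen genes past 1.5-fold in both systems. Over that list 4 genes were higher and 5 lower in both, with medians of 0.04 and -0.08. Gbe1, the glycogen branching enzyme, was lower, at 363 against 980 CPM in the 10x system and 405 against 528 in the second, and Pygm, the muscle glycogen phosphorylase, was higher by 0.74 and 0.40.

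Of the 19 described glycolysis genes, 11 were higher in Running and 3 lower in both systems, with medians of 0.53 (10x) and 0.24 (second system). Of them 5 passed 1.5-fold in both systems, and Gapdh, Pgam2 and Aldoa were called. Pgam2, the muscle phosphoglycerate mutase (chromosome 11, 5801640 to 5803733), was at 183 against 89.5 CPM in the 10x system and at 919 against 274 in the second. Within each system Running was the higher, by 1.03 and 1.74 on the log2 scale, and the fit of 4 libraries gave 1.46 (SE 0.30, edgeR adjusted p 0.000933). Gapdh, which oxidises glyceraldehyde 3-phosphate, was at 74.0 against 24.9 and at 315 against 147 CPM (1.57 and 1.09, fit 1.41, SE 0.31, edgeR adjusted p 0.0028). The reads of Gapdh may be shared with its many pseudogene copies. Aldoa, the muscle aldolase, was at 514 against 204 and at 2221 against 1133 CPM (1.33 and 0.97, fit 1.23, SE 0.30, edgeR adjusted p 0.014). Tpi1 (0.86 and 0.70) and Pkm (0.76 and 0.61), the isomerase and the pyruvate kinase of the pathway, were the other two past 1.5-fold. Pfkm, the muscle phosphofructokinase, did not share the direction (-0.28 and 0.05), nor did Hk2, the inducible hexokinase (0.49 and -0.17). Slc2a4, the insulin-responsive glucose transporter, was at 187 against 128 and at 659 against 418 CPM, just under the 1.5-fold line in the 10x system.

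Lactate genes were higher and lower by member. Ldha, the lactate dehydrogenase subunit that favours lactate (chromosome 7, 46841475 to 46855627), was at 209 against 85.0 CPM in the 10x system and at 726 against 455 in the second. Its log2 differences were 1.30 and 0.67, and it was not called (1.06, SE 0.30, edgeR adjusted p 0.080). Ldhb, the subunit of oxidative tissue, was at -0.10 and -0.18. The exporter Slc16a3 (0.72 and 0.65) and its chaperone Bsg (0.92 and 1.08) passed 1.5-fold in both systems, while the importer Slc16a1 was at -0.47 and 0.00. Pdk4, a kinase that shuts pyruvate dehydrogenase off, was at 1.04 and 0.54, and the pyruvate carrier subunit Mpc1 at -0.11 and -0.36. Over the 15 described lactate and pyruvate genes, 6 were higher and 2 lower in both systems, with medians of 0.24 and 0.03. In Type IIb-like nuclei alone Ldha was higher by 1.03 and 0.66 and Bsg by 1.05 and 1.04.

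Promoters are shown for Pgam2 and Ldha, which were higher in Running, and for Musk, which was lower and is described further down, to set the letters of 2 known motifs beside the differences. Capitals mark CANNTG, the E-box letters bound by myogenic factors, and ACGTG on either strand, letters found in sites of hypoxia-inducible and clock factors. The letters CACGTG hold both motifs and count as ACGTG once on each strand. The sequences are the 250 bases before a RefSeq start on GRCm38.p6, written in the direction of transcription, at chr11:5803797-5804046 (minus strand) for Pgam2, chr7:46845554-46845803 (plus strand, 1 of 2 RefSeq starts, inside the longer GENCODE gene span) for Ldha and chr4:58285712-58285961 (plus strand) for Musk.
Pgam2: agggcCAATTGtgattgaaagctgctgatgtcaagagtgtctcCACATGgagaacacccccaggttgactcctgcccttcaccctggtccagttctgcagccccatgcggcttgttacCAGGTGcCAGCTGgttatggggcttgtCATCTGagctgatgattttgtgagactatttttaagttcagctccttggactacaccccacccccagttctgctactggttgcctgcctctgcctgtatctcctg
Ldha: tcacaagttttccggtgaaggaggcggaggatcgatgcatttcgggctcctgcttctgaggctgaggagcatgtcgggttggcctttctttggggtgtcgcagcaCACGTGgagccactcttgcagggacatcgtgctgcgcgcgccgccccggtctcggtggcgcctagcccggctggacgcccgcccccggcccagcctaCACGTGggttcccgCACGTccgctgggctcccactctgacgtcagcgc
Musk: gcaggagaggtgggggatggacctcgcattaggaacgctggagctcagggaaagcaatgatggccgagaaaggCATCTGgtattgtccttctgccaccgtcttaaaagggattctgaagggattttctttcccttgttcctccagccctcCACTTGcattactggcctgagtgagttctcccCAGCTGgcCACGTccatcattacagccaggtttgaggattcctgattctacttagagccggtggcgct
The Pgam2 window holds 5 CANNTG and no ACGTG, the Ldha window 2 CANNTG and 5 ACGTG, and the Musk window 3 CANNTG and 1 ACGTG. The same window of Meg3, the first of the higher genes, is not shown and holds 0 CANNTG and 0 ACGTG. Of 27025 genes in the promoter table, 1.18% hold at least 5 CANNTG and 0.14% at least 5 ACGTG, while 66.04% hold at least 1 CANNTG and 16.57% at least 1 ACGTG. Of the 57 genes higher in both systems 46 had a promoter in the table, and 32 of these (69.57%) held CANNTG and 12 (26.09%) ACGTG. The shares over the 4733 described genes with a promoter were 54.26% and 23.43%, and of 10 genes lower past 1.5-fold in both systems 7 held CANNTG and 5 ACGTG.

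**Figure D2:**
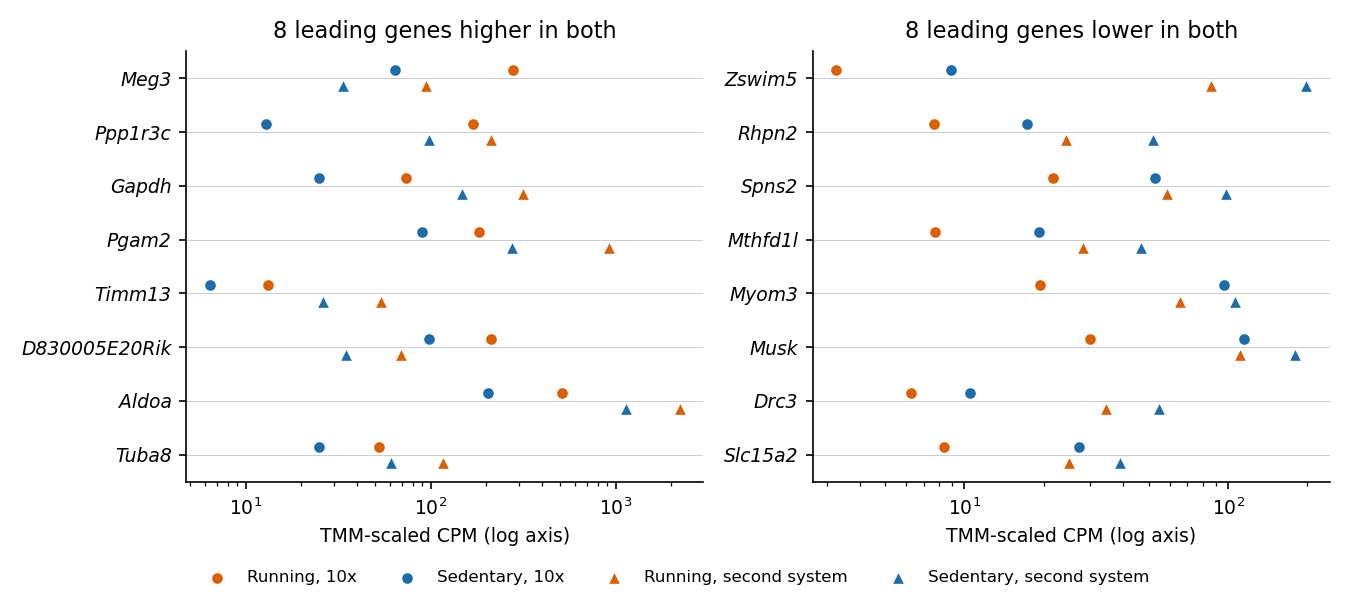
Level in CPM (log axis) of the leading genes in the 4 libraries, with 8 genes higher in both systems in the left panel and 8 lower in both in the right. Circles are 10x libraries and triangles second-system libraries, orange is Running and blue is Sedentary, and Running lies above Sedentary in both systems for Meg3, Ppp1r3c, Gapdh and Pgam2 and below it in both for Zswim5 and Musk.

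Nuclear genes of the respiratory chain were higher in Running in 31 of 38 described members and lower in 1 (Ndufs4, a complex I subunit, -0.14 and -0.19), with medians of 0.65 and 0.31. Past 1.5-fold in both systems were 6 of them, and Cox8b and Cox6a2, the heart and muscle forms of 2 cytochrome oxidase subunits, were called. Cox8b was at 43.5 against 9.06 CPM in the 10x system and 211 against 136 in the second (2.26 and 0.64). Cox6a2 was at 58.8 against 14.9 and 270.5 against 180 (1.98 and 0.59). The ATP synthase genes Atp5d (1.46 and 0.78) and Atp5o (1.11 and 0.74) and the complex I genes Ndufb8 (1.14 and 0.65) and Ndufb10 (0.65 and 0.60) were the others. Outside the list, the mitochondrial genes Chchd10 (1.98 and 0.83, called), Timm13, an import chaperone (1.05 and 1.03), Uqcc2, a complex III assembly factor (0.84 and 0.92), and Mdh2, malate dehydrogenase (0.84 and 0.66), were also past 1.5-fold in both systems. Of the respiratory chain genes, 23 are shorter than 10 kb and 22 of these were higher in both systems, and of the 14 longer ones 8 were. Regulators of mitochondrial mass did not share this, with 2 of 17 higher and 6 lower in both systems. Their median length was 49.78 kb, against 7.19 kb for the respiratory chain genes. Of all described genes of 30 to 100 kb, 16.26% were higher and 31.69% lower in both systems. Ppargc1a, the coactivator PGC-1alpha, was at 236 against 238 CPM in the 10x system and 273 against 238 in the second. Genes of fatty acid oxidation were 7 higher and 7 lower of 27, with medians of -0.25 and 0.06.

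**Figure D3:**
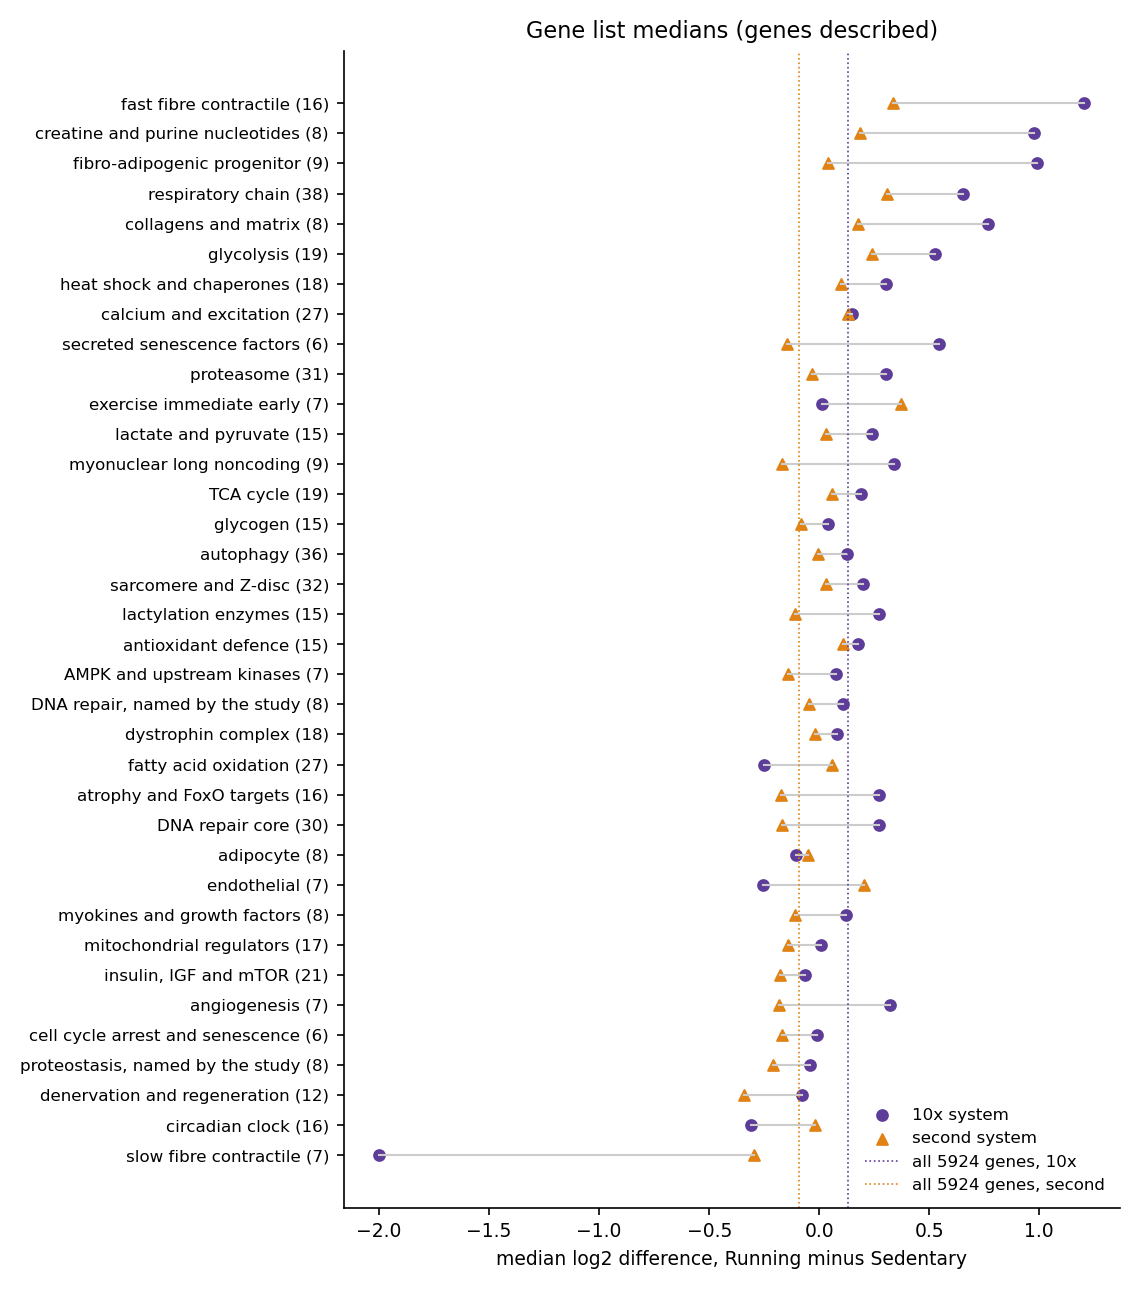
Median log2 difference of Running over Sedentary for each gene list in the 10x system and in the second system, with the number of described genes beside the name and the medians of all 5924 described genes as reference lines. Fast fibre, respiratory chain and glycolysis genes lie above both reference lines, and the 7 described slow fibre genes lie below both. With a minimum of 50 UMIs the slow fibre median of the second system was 0.38, above its reference line.

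Fast fibre contractile genes were higher in Running in 13 of 16 members and lower in 1, with medians of 1.21 in the 10x system and 0.34 in the second. Tnnc2, fast troponin C, was at 314 against 66.1 CPM and at 4982 against 3279, and Tnni2, fast troponin I, at 635 against 170 and at 4253 against 2759. Both were called (1.5, SE 0.31, edgeR adjusted p 0.0012 for Tnnc2 and 1.34, SE 0.31, edgeR adjusted p 0.0066 for Tnni2). Tnnc2 overlaps Ube2c on the other strand, which was also past 1.5-fold in both systems, and the sources used here do not say whether counting used strand. Mylpf, the fast regulatory light chain, was called at 760 against 112 and 1776 against 1201 CPM, and Myl1, the fast essential light chain, was past 1.5-fold in both systems without a call (0.65 and 0.68). Acta1, skeletal alpha-actin and a member of the sarcomere list, was at 1689 against 321 CPM in the 10x system and 4415 against 2528 in the second, higher by 2.40 and 0.80 (fit 1.68, SE 0.31, edgeR adjusted p 0.0001). Mylk4, a kinase of fast fibres, was the member lower in both systems (-1.24 and -0.25). In 10x fibro-adipogenic progenitor-like nuclei, which should lack these fibre genes, Acta1, Mylpf and Tnnc2 were also higher in Running, by 1.82, 2.22 and 1.86 on the log2 scale, and the part of free RNA was not tested.

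Of 7 described slow fibre genes 4 were lower in Running in both systems, 0 were higher in both and 3 had opposite directions, with medians of -2.0 and -0.30. The list holds 16 genes, and the others fell under the UMI limit. With a minimum of 50 UMIs 11 genes were described, 4 lower in both systems and 7 with opposite directions. Their medians were -3.48 and 0.38, so the sign of the second-system median depends on the UMI limit. Myh7, the slow myosin, was at 4.75 against 260 CPM in the 10x system, on 195 and 5912 UMIs, and at 224 against 123 in the second, on 1493 and 525 UMIs. Running was far lower in the first system and higher in the second. Tpm3 (-2.44 and 0.38) and Atp2a2 (-2.0 and 0.17), the slow tropomyosin and the slow calcium pump, had the same pair of directions. Myoz2, a Z-disc protein of slow fibres, was lower in both, at 3.02 against 71.8 and 45.4 against 67.0 CPM, and was called (-2.48, SE 0.42, edgeR adjusted p 7.43e-06). Myh2, the myosin of Type IIa fibres, was at 211 against 727 and 757 against 929 CPM (-1.78 and -0.30). Myh1 (0.15 and 0.06) and Myh4 (1.17 and 0.20), the Type IIx and IIb myosins, were higher in both. Nuclei of a slow-like cluster were 7 of 12991 in Running replicate 1 (0.054%, 95% Wilson interval 0.026 to 0.111) and 386 of 10587 in Sedentary replicate 1 (3.65%, 3.31 to 4.02). In the second system they were 108 of 4228 (2.55%, 2.12 to 3.07) and 72 of 4234 (1.70%, 1.35 to 2.14). These intervals cover counting error only. Slow fibre markers summed to 103 against 904 CPM in the 10x system and to 981 against 606 in the second, and their part in the differences above was not tested.

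**Figure D4:**
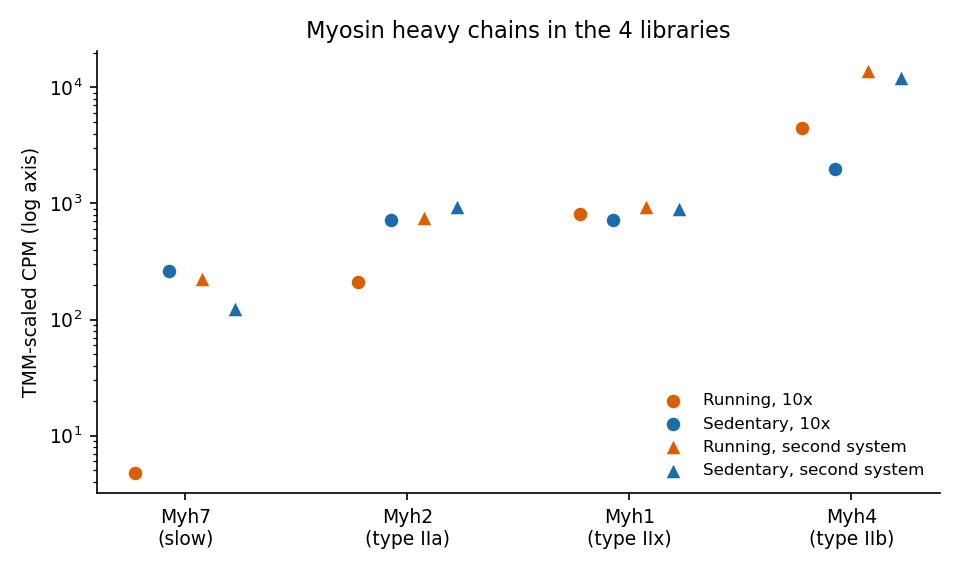
Level in CPM (log axis) of the 4 adult myosin heavy chain genes, with circles for 10x and triangles for second-system libraries, orange for Running and blue for Sedentary. Myh7 is at 4.75 CPM in Running replicate 1 against 260 in Sedentary replicate 1 and has the opposite order in the second system, while Myh4 is higher in Running in both.

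The study's 8 proteostasis genes were lower in 5 and higher in 1 in both systems, with medians of -0.04 and -0.21. Ubb, a polyubiquitin gene outside that list, was at 43.3 against 8.93 CPM in the 10x system and 86.5 against 57.6 in the second and was called (1.51, SE 0.36, edgeR adjusted p 0.011), and its reads may be shared with near-identical copies. Nedd4, Wwp1, Fbxo3, Btrc and Fbxl17, ubiquitin ligase genes, were the 5 lower ones, none beyond -0.28. The 8 DNA repair genes of the study were 4 higher and 3 lower, with medians of 0.11 and -0.05, and Park7, which codes for the redox-sensitive protein DJ-1, was the 1 past 1.5-fold (69.7 against 30.6 and 210 against 134 CPM). The study named both lists for muscle of young and old mice, not for running. Core DNA repair genes were 6 higher and 6 lower of 30, proteasome genes 10 and 4 of 31, autophagy genes 14 and 10 of 36, and writers and erasers of lysine lactylation 4 and 4 of 15. In the 10x system medians of the last 4 lists were 0.27, 0.30, 0.13 and 0.27 in that order, against 0.13 for all genes. Their medians in the second system lay between -0.17 and -0.01, against -0.09 for all genes.

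Stress and signalling genes gave shorter lists. Of 7 immediate early genes with enough UMIs, 4 were higher in both systems and 1, Nr4a3, was lower. Nr4a1, an orphan nuclear receptor, was at 304 against 202 and 634 against 413 CPM (0.59 and 0.62). Its difference was larger in Type IIx or IIa-like nuclei (1.62 and 1.12) than in Type IIb-like nuclei (0.08 and 0.47), a difference that was not tested. In the 10x system the Type IIx or IIa-like nuclei differed in fibre type between the groups, as given for Ppp1r3c. Heat shock and chaperone genes were 9 higher and 1 lower of 18, led by Hspa8, the constitutive HSP70 (1.30 and 0.35), and Hspa5, its partner in the endoplasmic reticulum (1.24 and 0.30). Clock genes were 2 higher and 7 lower of 16, with medians of -0.31 and -0.02. Arntl, which codes for the activator BMAL1, was at 129 against 44.3 and 38.2 against 31.5 CPM. The other gene higher in both was Bhlhe41, a repressor gene, at 50.86 against 31.89 and 35.82 against 29.15 CPM. Repressor genes thus went both ways, since Per1 (-0.50 and -0.43), Per2 (-1.60 and -0.39) and Ciart (-2.75 and -0.54) were lower. Under the UMI limit, the repressor genes Nr1d1 (71.74 against 34.35 and 16.94 against 10.34 CPM) and Nfil3 (19.35 against 3.563 and 8.394 against 8.228) were higher. Ciart was called (-1.58, SE 0.40, edgeR adjusted p 0.021), and the time of day of sampling is not given in the sources used here. Genes of insulin, IGF and mTOR signalling were 2 higher and 10 lower of 21, with medians of -0.07 and -0.18. Irs1, an insulin receptor substrate, was at -0.36 in both, and Tbc1d1, which holds back glucose transporters, at -0.70 and -0.41. All 21 genes were 10 kb or longer, with a median of 92.02 kb. Of all genes of 30 to 100 kb 31.69% were lower in both systems, and of those over 100 kb 45.02%. With RLE factors 3 of the 21 were higher and 6 lower, with medians of 0.06 and -0.19.

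Only 11 genes were lower past 1.5-fold in both systems. Zswim5 (chromosome 4, 116877376 to 116989264) was at 3.27 against 8.89 CPM in the 10x system and at 86.3 against 198 in the second, lower by 1.44 and 1.20, and was called (-1.24, SE 0.33, edgeR adjusted p 0.038). Musk, the receptor kinase that gathers acetylcholine receptors at the nerve contact (chromosome 4, 58285960 to 58374303), was at 30.1 against 115 and 111 against 179 CPM and was called (-1.24, SE 0.32, edgeR adjusted p 0.025). Sedentary was the higher in both systems for each of these genes. In Type IIb-like nuclei Musk was lower by 2.84 and 0.60 on the log2 scale, and in neuromuscular junction-like nuclei its level was 1557 against 1422 CPM in the 10x system and 1402 against 1647 in the second. Neuromuscular junction-like nuclei were 0.30% of Running and 0.63% of Sedentary nuclei in the 10x system and 1.42% and 1.44% in the second. Myom3, a protein of the sarcomere's M-band, was at 19.3 against 96.8 and 65.8 against 107 CPM and was called (-1.44, SE 0.34, edgeR adjusted p 0.0077). Rhpn2 (-1.17 and -1.10), Spns2, a sphingosine 1-phosphate transporter gene (-1.28 and -0.75), Mthfd1l, a mitochondrial folate enzyme gene (-1.31 and -0.73), and Slc15a2, a peptide transporter gene (-1.70 and -0.64), followed, with Drc3, Bcar3 and Galnt7 among the others. Barx2, a homeobox gene, lay just outside (-1.85 and -0.58). Denervation and regeneration genes were 1 higher and 5 lower of 12, with medians of -0.08 and -0.34.

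The direction of a gene went with its length. Of 637 genes under 10 kb, 55.89% were higher and 5.97% lower in both systems, of 1696 genes of 10 to 30 kb 33.79% and 12.38%, of 2275 genes of 30 to 100 kb 16.26% and 31.69%, and of 1266 genes over 100 kb 13.43% and 45.02%. Medians in the 10x system went from 0.51 in the shortest to -0.06 in the longest class, and in the second system from 0.10 to -0.11. The 57 genes higher in both systems had a median length of 4.84 kb (54 with a length, 35 of them under 10 kb), the 11 lower genes 88.34 kb and all described genes 40.55 kb. Glycolysis genes followed the same split, since all 6 under 10 kb and 4 of 12 longer ones were higher in both systems, while of the 11 fast fibre genes of 10 kb or more 9 were higher. The part of gene length in the differences of single genes was not tested.

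**Figure D5:**
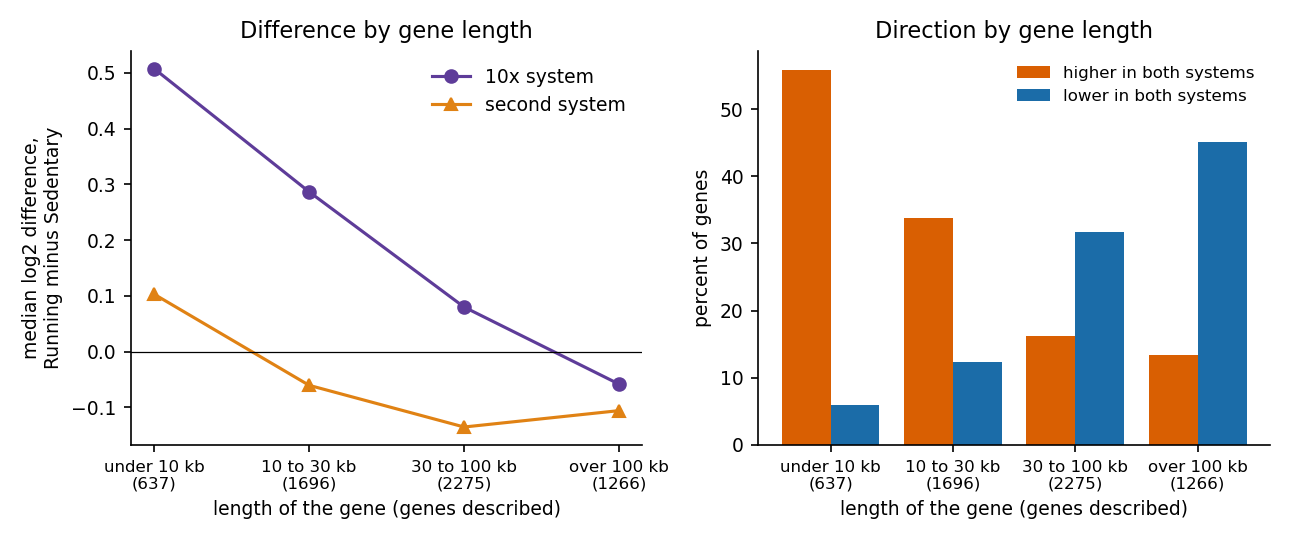
Median log2 difference of Running over Sedentary in each system (left) and percent of genes higher or lower in both systems (right) by length of the gene, in 4 classes with the number of genes. The medians are largest under 10 kb, the higher share goes from 55.89% under 10 kb to 13.43% over 100 kb and the lower share from 5.97% to 45.02%.

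Nuclei were clustered in each system to see which classes held the differences. Type IIb-like nuclei were 39.9% of Running (39.1 to 40.8) and 30.2% of Sedentary in the 10x system and 67.2% (65.8 to 68.6) and 66.3% (64.9 to 67.8) in the second. Fibro-adipogenic progenitor-like nuclei were 19.9% of Running against 8.79% of Sedentary in the 10x system (15.7% against 4.05% at a clustering resolution of 1.5), adipocyte-like nuclei 2.29% against 5.07%, muscle stem cell-like nuclei 2.58% against 1.35% and macrophage-like nuclei 2.64% against 1.76%. In the second system adipocyte-like nuclei were 1.80% against 1.20%, and 0.21% against 0.19% at a resolution of 0.5. Fibro-adipogenic progenitor-like nuclei could be named there only at a resolution of 1.5, as 92 nuclei in each library (2.18% against 2.17%), and muscle stem cell-like and macrophage-like clusters were not named at the resolution of 1.0. Nuclei like the Runx1-positive class were found in the second system alone, at 0.64% (0.44 to 0.93) against 2.62% (2.18 to 3.15). With 1 library a group in each system these shares carry no test, and unnamed nuclei were 7.57% and 19.5% in the 10x system. They formed a cluster led mostly by long genes (732 Running and 1109 Sedentary nuclei) and a cluster led by Gm10800 and Gm10801 (251 and 959). Gm10801 was at 92.4 against 1481 CPM in the 10x system and 601.3 against 418.4 in the second. The part of nucleus quality in the 10x shares was not tested. Markers of fibro-adipogenic progenitors summed to 3582 against 1428 CPM in the 10x system and 1085 against 989 in the second.

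The 10x fibre clusters were nearly separate between the libraries. Most Type IIb-like nuclei of Running lay in a cluster of 4956 Running and 181 Sedentary nuclei, and those of Sedentary in 2 clusters, 1 with 208 and 1857 and 1 with 2 and 1159. In the second system the largest Type IIb-like clusters held 1835 and 982, 802 and 915, and 137 and 889 nuclei. Within Type IIb-like nuclei alone 4339 genes had 100 UMIs in each library, and 39 were higher and 8 lower past 1.5-fold in both systems. Of the 57 genes above, 37 were among them, and all 37 were higher in both systems, 32 of them past 1.5-fold. Of the 11 lower genes 4 were among them, and these 4 were lower past 1.5-fold. The Type IIb-like nuclei were part of the sums by which these genes were picked, so this overlap is not independent support. List medians there were 0.41 and 0.22 for glycolysis, 0.59 and 0.23 for the respiratory chain and 1.02 and 0.46 for fast fibre genes, against 0.06 and -0.12 for all 4339 genes.

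Set beside the Old and Young libraries of the same system, Running was the highest of the 4 groups in both systems for 21 of the 57 genes, and for 536 of the 1488 genes that were higher in Running in both systems by any amount. Sedentary was the lowest of the 4 in the 10x system for 51 of the 57, and for 2530 of the 3838 genes higher in Running there by any amount. In the second system Sedentary was the lowest for 7 of the 57, and for 250 of the 2027 genes higher in Running there. The 57 were picked with Sedentary below Running, which favours such ranks. Pgam2 had Running highest and Sedentary lowest in both systems, and Ppp1r3c and Acta1 had Running highest in both. Meg3 was lowest in Sedentary in both, and Young was above Running in the 10x system (488 against 278 CPM) and near it in the second (90.0 against 94.9). For Ldha Young was above Running in the 10x system, at 241 against 209 CPM, and below it in the second, at 511 against 726. Of the 11 lower genes, 5 were highest in Sedentary in both systems, among them Zswim5 and Musk, beside 404 of the 1547 genes lower in both by any amount. Lowest in Running in both were 2 of the 11, Bcar3 and Galnt7, beside 93 of those 1547 genes.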

How the data were processed

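The deposited files hold raw UMI counts per gene and nucleus, 1 matrix per library, which the authors made with Cell Ranger 6.1.2 (10x) or PISA (second system) on mm10. Intron counting and strand are not given in the sources used here. Seurat 4.1.1 is named in the submitters' notes. Here nuclei were filtered as in the study's methods, mitochondrial genes (12) and those of ribosomal proteins (82) were set aside, and UMIs were summed per library over 21113 symbols common to all 8. Coordinates and lengths come from GENCODE vM21, matched for 5874 of 5924 genes.

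Differences within a system are log2 ratios of TMM-scaled CPM. Tests were edgeR 4.0.16 quasi-likelihood fits (Benjamini-Hochberg, limit 0.05) on 8 libraries with a library system term, and on the 4 alone. The replicate number is the library system, so this term is also the replicate block. DESeq2 1.42.0 was an alternative, and the steps were tested on simulated data. P-values measure only the spread between these libraries. Nuclei were clustered per system with scanpy 1.11.5 (2000 variable genes, 30 components, 20 neighbours, Leiden resolution 1.0) and named from marker lists, with naming limits set after the clusters were seen. Genes sharing reads with copies or antisense genes are uncertain.

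Members and lists were chosen with earlier results of these data known. Named were the 12 genes highest and 12 lowest in both systems by the smaller log2 difference, 5 for each opposite direction, every gene called on 8 libraries, 10 for each direction with the smallest p on 4, Ldha and the 16 genes the study names, up to 6 genes per list, and 5 genes known from an earlier look. Genes named beyond this rule were chosen after their values were seen. Some genes are not reported here.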

Additional observations from a re-analysis of the deposited data

Results flagged for a closer look

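The following genes passed 1.5-fold in opposite directions in the 10x and the second system, and the difference between the systems was not tested because each system has 1 library per group. Myh7, the slow myosin, was at -5.77 (10x) and 0.86 (second system) on the log2 scale, Running over Sedentary. Lower in the 10x system and higher in the second were also Cpa6 (-2.25 and 1.75), Dgkg (-1.71 and 1.94), Slc17a9 (-1.77 and 1.18) and Gm11867 (-1.59 and 0.89). Dgkg, a diacylglycerol kinase gene, stood at 3.56 against 11.7 CPM in the 10x system and at 1063 against 277 in the second.

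Higher in the 10x system and lower in the second were Ebpl (1.06 and -0.99), Socs2 (0.78 and -0.71), Sh3d19 (0.70 and -1.08), Crybg3 (0.69 and -0.83) and Best3 (1.38 and -0.68). Socs2, a suppressor of growth hormone signalling, was at 142 against 82.8 CPM in the 10x system and 145 against 236 in the second. Sh3d19 is also a marker of the Runx1-positive class, whose nuclei were named in the second system alone, at 0.64% of Running and 2.62% of Sedentary.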

How the results depend on the processing

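The fit of 8 libraries called 0 genes with RLE factors, total UMIs, DESeq2 and no library system term (no replicate block). Leaving out 1 library gave 0 to 427 calls, the 427 without Sedentary replicate 2 (15 higher, 412 lower) and 0 without any other. The 4 Running and Sedentary libraries alone gave 82 calls, 88 with RLE factors, 4 by DESeq2, 0 with total UMIs and 0 without the system term. Genes past 1.5-fold in both systems numbered 57 higher and 11 lower. With a minimum of 50 UMIs they were 102 and 22, with 200 UMIs 41 and 5, with libraries thinned to the smallest total 36 and 2, with a fold limit below 1.5 (the lower of those tried) 225 and 103 and with a 2-fold limit 5 and 2. Genes of 1 direction in both systems numbered 3035 of 5924 (51.23%), and 1955 of 3767 (51.9%) with the 200 UMI minimum, where fewer genes were described. The causes of the other changes were not tested. Of the 221 named genes, between 29 and 58 had another sign in the fit of 8 libraries when 1 Running or Sedentary library was left out, and 13 in the fit of 4. Meg3 stayed between 1.2 and 2.44 and Pgam2 between 1.15 and 1.63 on the log2 scale when any 1 library was left out. Of 291 list medians recomputed, 43 had another sign, and of 92 class shares 20 left the interval. Depth limits the genes near 100 UMIs.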

Other observations

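Other gene groups were mostly mixed. Creatine and purine nucleotide genes were 5 higher and 2 lower of 8, with medians of 0.98 (10x) and 0.19 (second system), led by Ckm, the muscle creatine kinase, at 1194 against 591 and 7242 against 5515 CPM. Collagen and matrix genes were 5 higher and 0 lower of 8 (0.77 and 0.18), beside the marker sums of fibro-adipogenic progenitors given above. Genes of the citric acid cycle were 9 higher and 3 lower of 19, calcium and excitation genes 14 and 8 of 27, antioxidant genes 6 and 3 of 15, and dystrophin complex genes 6 and 6 of 18. Of 7 angiogenesis genes 0 were higher and 2 lower in both systems, and Vegfa, the main endothelial growth factor, was at 844 against 463 CPM in the 10x system and 537 against 667 in the second.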
